A study of Rattus norvegicus with 4 samples.

Results

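Coding exon m6A peaks are the stretches of mRNA, annotated by the authors as exonic and lying away from the start codon, the stop codon and both untranslated regions (UTRs), where RNA pulled down with an antibody against N6-methyladenosine was enriched over the RNA it was taken from. They were chosen as every row with that annotation outside the mitochondrial chromosome. There were 8243 of 29653 listed peaks at 3 weeks, 9796 of 33056 at 5 weeks, and 3128 of 12704 in the table that compares the ages, with 11 mitochondrial exonic rows left out of each. All of them carried a protein-coding transcript, so the annotation and the biotype went together.

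Methylated RNA immunoprecipitation sequencing (MeRIP-seq) was done on the arcuate nucleus (ARC) of the hypothalamus of female Sprague-Dawley rats with no treatment, to follow m6A from the juvenile age to early puberty. The labels call the tissue ARC_212 and ARC_352, which were read as the 3-week-old and 5-week-old rats of the paper. Each age was 1 pool of ARC from 3 rats, with 1 input and 1 immunoprecipitated (IP) library of polyadenylated RNA, 4 libraries in all, so a difference between 3 and 5 weeks rests on single pools and none was tested. The pools were whole tissue, so a change in cell makeup and a change of methylation within cells cannot be told apart.

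N6-methyladenosine is placed on adenosines of nascent mRNA by a METTL3 and METTL14 complex, removed by FTO and ALKBH5, and read by YTH domain proteins that steer splicing, decay and translation. In mammalian mRNAs the mark gathers near stop codons and in long internal exons, where few exon junctions lie close by. Coding exon peaks are therefore the main class of marks inside the reading frame. The letters of the peaks were not analysed here, and positions are given as the files list them, for rat and with no rat build named.

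The lists hold only peaks called as enriched over input, and the typical strength of coding exon peaks was the second lowest among the 5 regions of an mRNA. The median log2 enrichment of IP over input was 2.91 at 3 weeks (7.50-fold, quartiles 2.37 to 4.00) and 2.62 at 5 weeks (6.15-fold, quartiles 2.17 to 3.50). Stop codon peaks had medians of 4.11 and 3.54, start codon peaks 3.33 and 2.96, and 5' UTR peaks 3.09 and 2.79. Only 3' UTR peaks were lower, with 2.64 and 2.42. Coding exon peaks made up 27.8% of the peaks outside the mitochondrial chromosome at 3 weeks (95% Wilson interval 27.3% to 28.3%) and 29.6% at 5 weeks (29.2% to 30.1%), where the intervals cover counting error over peaks and not differences between rats.

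**Figure D1:**
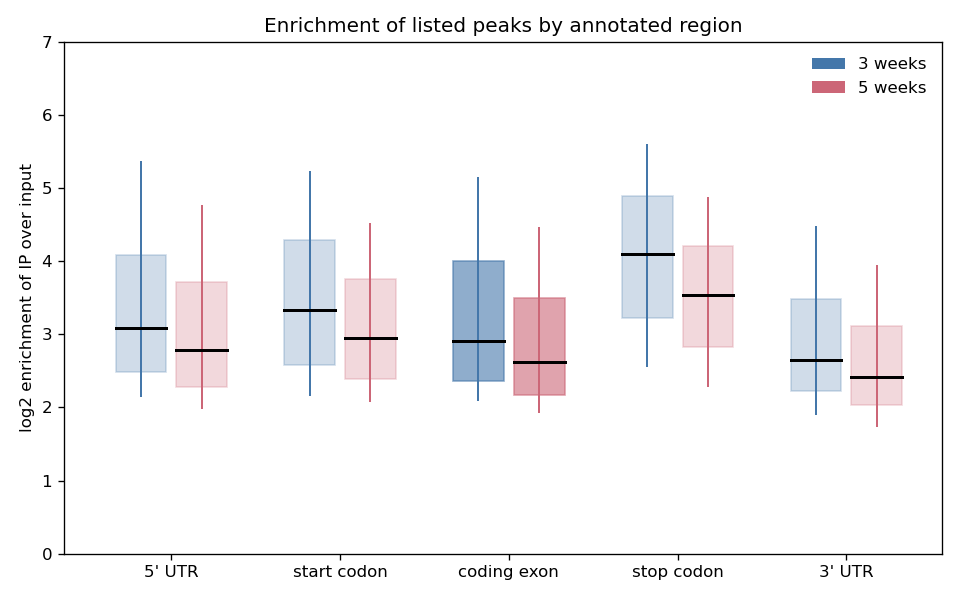
Log2 enrichment of IP over input for the listed peaks of each region at 3 weeks (blue) and 5 weeks (red). Black lines are medians, boxes quartiles and thin lines the 10th to 90th percentiles over peaks; the medians of coding exon peaks, 2.91 and 2.62, lie above those of 3' UTR peaks and below those of the other 3 regions.

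The peaks were long on the genome. Their median span was 2333 bases at 3 weeks and 2565 bases at 5 weeks, against 326 bases for 3' UTR peaks at both ages. Peaks of up to 500 bases made up 25.6% and 23.6% of coding exon peaks, and 70.1% and 71.0% of 3' UTR peaks. Spans include introns, since the lists give no exon blocks, so they say little about the length of methylated RNA.

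On the genomic span of their genes, introns included, the coding exon peaks lay more often towards the 3' end. Where the coding exons themselves lie on that span was not measured, so a lean of the mark cannot be told from gene structure. The last 20% of the gene's length held 28.6% of them at 3 weeks and 28.1% at 5 weeks, and the first 20% held 11.9% and 11.4%. Their median place was 61.4% of the way along the gene at both ages, while stop codon peaks had a median of 90.9% and 90.5%. Enrichment varied little with place, with medians from 2.82 to 3.04 over the 5 stretches at 3 weeks and from 2.54 to 2.69 at 5 weeks.

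**Figure D2:**
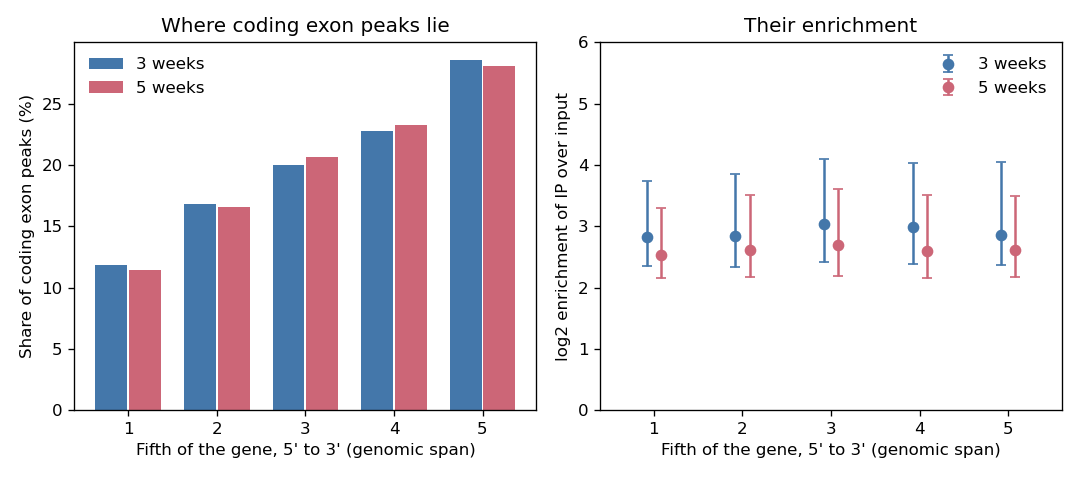
Left, share of coding exon peaks (%) in each 20% of the gene's genomic span, from the 5' to the 3' end, at 3 weeks (blue) and 5 weeks (red). Right, their log2 enrichment, with points for medians and bars for quartiles over peaks; the share rises from 11.9% to 28.6% at 3 weeks, while the medians stay between 2.82 and 3.04.

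Coding exon peaks were found in 5473 genes at 3 weeks and 6138 at 5 weeks. Of 7460 genes with one at either age, 4151 had one at both, 1322 at 3 weeks alone and 1987 at 5 weeks alone. Of the genes that had one at 5 weeks alone, 1527 had a peak in another region at 3 weeks and 460 had no peak at all. Of the genes that had one at 3 weeks alone, 1081 had a peak in another region at 5 weeks and 241 had none. The same counts were not made for the other regions or for all genes, so whether these are usual is not known. A single coding exon peak was the rule, in 3763 genes (68.8%) at 3 weeks and 4002 (65.2%) at 5 weeks, and 51 and 72 genes held 6 or more. Genes with more of them were longer: at 3 weeks the median genomic span rose from 28696 bases for genes with 1 coding exon peak to 47604 bases with 2 and 95993 bases with 6 or more, and genes with peaks in other regions alone had a median of 21272 bases.

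Many of these mRNAs were also marked at the stop codon, 44.9% of the genes at 3 weeks and 46.5% at 5 weeks, whereas 25.4% and 22.1% had coding exon peaks and no other. In the 2460 genes with both kinds at 3 weeks, the strongest coding exon peak exceeded the stop codon peak in 31.2%, with a median difference of -0.77 on the log2 scale. At 5 weeks this held in 33.4% of 2856 genes, with a median of -0.49. Set against 3' UTR peaks of the same genes, the coding exon peak was the stronger in 53.9% at 3 weeks and 55.8% at 5 weeks.

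The 10 genes with the most coding exon peaks included several that encode very large linkers of the cytoskeleton or of the cell surface. The last of the 10, Fat1, with 16 peaks in total, was tied with Rnf213, Stard9 and Utrn and taken by alphabetical order. Syne1, which encodes the nuclear envelope linker nesprin-1, held 16 peaks at 3 weeks and 18 at 5 weeks. Its sister Syne2 held 11 and 13. The plakins Dst and Macf1, which join actin to microtubules, held 13 and 11 in Dst and 11 and 10 in Macf1. Long cell-surface proteins followed, with 10 and 10 in Adgrv1, an adhesion receptor, 7 and 10 in the atypical cadherin Fat4, and 4 and 12 in its relative Fat1. The gene model named Pcdha5, which spans the protocadherin alpha cluster, held 12 and 15, and an unnamed gene, ENSRNOG00000065195, held 17 and 9. The model named Prkag1, a subunit of the energy sensor AMPK, held 8 and 13, but it covers 57439 bases against 17427 in RefSeq GRCr8, where Kmt2d is its neighbour, so its peaks may belong to another gene. Among 7024 gene models matched by symbol to RefSeq, 336 (4.78%) were over 1.5 times as wide.

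Syne1 shows how the peaks of one mRNA differed. At 3 weeks their log2 enrichment ran from 1.92 to 5.20 with a median of 2.57, and at 5 weeks from 1.73 to 4.68 with a median of 2.68. The strongest, chr1:41692053-41697708 at 5.20, was listed at 5 weeks as 2 adjoining peaks of 4.09 and 4.68. The comparison table had 9 rows in Syne1, and the strongest of them went from 5.38 to 4.53 while one of the weakest, chr1:41857293-41870532, went from 1.64 to 2.77. None of the 9 was 2-fold weaker and 2 were 2-fold stronger.

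Among peaks that were both strong and well supported, Eif5b, Eif3a and Ythdc1 had the highest means over the ages. They were picked after their values were seen, as pairs with a caller's p listed as 0 at both ages (370 pairs, in order of mean enrichment). Eif5b, a translation initiation factor that joins the ribosomal subunits, was enriched by a log2 of 7.94 in the 3-week pool and 6.86 in the 5-week pool over chr9:40245412-40266065. Eif3a, the scaffold of initiation factor 3, had 7.16 and 6.67. Ythdc1, the nuclear reader of m6A itself, had 7.07 and 6.52. The next included Cald1 (7.04 and 6.42), which encodes the actin regulator caldesmon, the chromatin protein gene Ankrd11 (7.08 and 6.26), the spliceosome kinase gene Prpf4b (6.88 and 6.12), and Zc3h13 (6.81 and 6.13), whose protein anchors the m6A writer complex in the nucleus. Each of these 7 peaks was lower at 5 weeks, as were 3142 of all 5062 coding exon pairs. Coding exon pairs with a mean of 6 or more had a median difference of -0.69. Atp5f1c, listed among them at 7.10 and 5.88, has a gene model 8.28 times as wide as in RefSeq, with Taf3 next to it.

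The peaks with the highest enrichment of all were a different kind. The 10 paired peaks that led by mean enrichment reached a log2 of 7.97 to 11.4 and lay in Arl9, AABR07058934.1, Triobp, Exph5 (which gave a pair of them), Tchh, Kif20b, Efcab5, Ccdc18 and Pmfbp1. In Arl9, a small GTPase gene of the Arf family, values were 11.4 and 9.69, with a caller's p of 1.39e-08 and 1.30e-06. Kif20b, which encodes a mitotic kinesin, had 10.3 and 9.61. Peaks of this strength were rare, short and weakly supported: 202 coding exon peaks at 3 weeks and 133 at 5 weeks had a log2 of 8 or more, with median p of 7.37e-06 and 7.22e-06 and median spans of 384 and 376 bases. Those between 4 and 6, in contrast, had a median p of 9.65e-62 at 3 weeks and 2.52e-41 at 5 weeks. Their input levels are not given, so whether few input reads go with these values was not tested.

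A smaller share of coding exon peaks than of stop codon peaks recurred between the ages. Of the 3-week peaks 67.8% (66.8% to 68.8%) overlapped a coding exon peak of the other age on the same strand, by 1 base or more, and of the 5-week peaks 55.7% (54.7% to 56.7%). The same shares were 87.9% and 84.4% for stop codon peaks and 70.1% and 60.4% for 3' UTR peaks. Start codon peaks had 67.1% and 65.1% and 5' UTR peaks 59.4% and 57.4%, so at 3 weeks both stood below coding exon peaks. Peaks with a partner were the stronger ones, with median log2 enrichment of 3.07 against 2.67 at 3 weeks and 2.99 against 2.31 at 5 weeks. A further 1111 (13.5%) at 3 weeks and 1046 (10.7%) at 5 weeks overlapped only a peak of another annotation, of which 644 and 600 best matched a stop codon peak. No peak of any kind lay over the remaining 1543 (18.7%) and 3296 (33.6%).

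Between 3 and 5 weeks most coding exon peaks of the comparison table lost enrichment, but a smaller share did so than of the peaks as a whole. Of its 3128 coding exon peaks 1152 (36.8%) were at least 2-fold weaker at 5 weeks and 535 (17.1%) at least 2-fold stronger, while over all 12691 peaks the shares were 46.9% weaker and 10.6% stronger. The table is limited to peaks whose p from the authors was under 0.05, so these shares describe that selection. The median difference, 5 weeks minus 3 weeks, was -0.75 on the log2 scale (quartiles -1.33 to 0.66), with 2126 peaks below 0 and 1002 above. Stronger peaks made up 31.7% of the coding exon peaks past 2-fold (29.5% to 34.0%), against 5.45% at stop codons (4.61% to 6.45%) and 20.3% in 3' UTRs (18.5% to 22.2%). At start codons the share was 18.9% and in 5' UTRs 23.0%.

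All peaks of the table had a median difference of -0.96, and relative to it the coding exon median was 0.21 higher. Centred this way, 1002 coding exon peaks were 2-fold stronger and 428 weaker, but these 1002 are all the peaks that rose at all. The shift is close to the 2-fold limit itself, and this holds for the centred counts of the gene lists below too. Centred on the median of all pairs between the separate lists, -0.31, 759 were stronger and 799 weaker. The direction of the class as a whole thus depends on the scale. By the share of 2-fold stronger peaks 5' UTR peaks stood higher, with 18.4% in the table against 17.1%. Among the 5062 coding exon peaks paired between the separate lists, which the table's selection does not touch, the median difference was -0.17, with 628 (12.4%) weaker and 285 (5.63%) stronger. Paired stop codon peaks had a median of -0.54 and paired 3' UTR peaks -0.24, and all 22384 pairs had -0.31, which put the coding exon median 0.14 above it. Of the coding exon pairs past 2-fold 31.2% were stronger, much as at start codons (30.6%) and in 5' UTRs (32.0%). The share was 12.1% at stop codons and 23.8% in 3' UTRs.

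**Figure D3:**
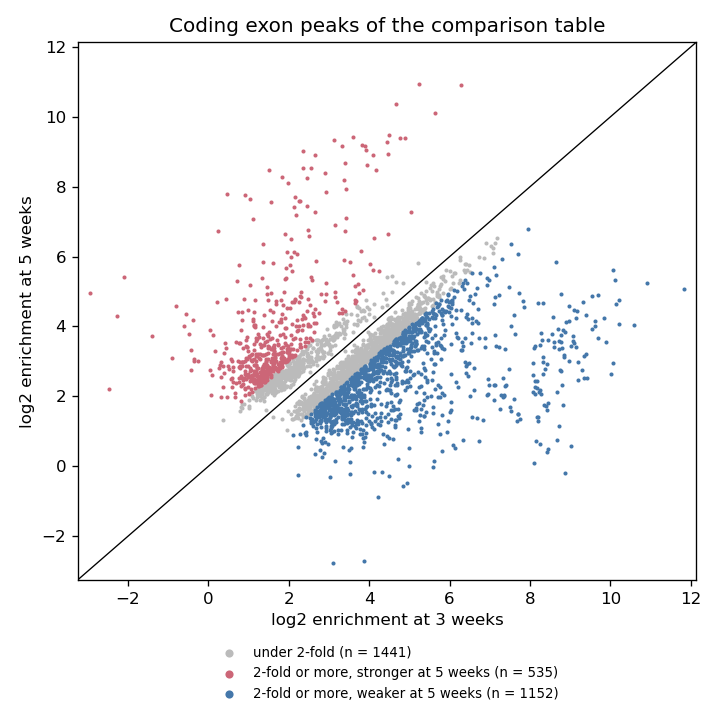
Log2 enrichment at 3 weeks (horizontal) and 5 weeks (vertical) of each coding exon peak in the comparison table; the line marks equal values. Blue points are the 1152 peaks at least 2-fold weaker at 5 weeks, red points the 535 at least 2-fold stronger, and grey points those under 2-fold; the widest gaps have a log2 enrichment near 8 or more at one age.

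In the comparison table the difference went with strength. Coding exon peaks with a mean log2 enrichment under 2 had a median difference of 0.92, with 157 stronger and 43 weaker of 341, those from 4 to 5 had -0.92, with 37 and 246 of 554, and those of 6 or more had -3.52. At the same strength the medians of coding exon and stop codon peaks were -0.81 and -0.95 between 3 and 4 and -0.92 and -1.05 between 4 and 5, but -1.27 and -1.15 between 5 and 6 and -3.52 and -1.58 at 6 or more, so the order turned among the strongest peaks. Paired peaks, free of the table's limit on p, spread far less with strength, with coding exon medians of -0.03 under 2, -0.24 from 3 to 4, -0.47 from 4 to 5 and -0.69 at 6 or more. Paired stop codon peaks were lower in each of these ranges, with -0.08, -0.46, -0.70 and -0.74. Place along the gene mattered less, with medians of -0.91 in the first 20% of the gene and between -0.78 and -0.66 in the rest.

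The same mRNAs can be compared with themselves, which leaves the scale between the libraries out of the gap between regions. Counts of rises and falls still depend on that scale. In 722 genes with a coding exon and a stop codon peak in the table, the mean coding exon difference was above the stop codon difference in 482 genes (66.8%), with a median gap of 0.28. The medians were -0.74 for the coding exon peaks and -1.01 for the stop codon peaks. Coding exon peaks rose while stop codon peaks fell in 192 genes, and the reverse was seen in 9. The gap was 0.30 against 3' UTR peaks (308 of 496 genes higher), 0.19 against start codon peaks (138 of 230) and 0.53 against 5' UTR peaks (120 of 173). In the paired lists it was 0.40 against stop codons, with 982 of 1429 genes (68.7%) higher, but 0.13, 0.07 and 0.01 against 3' UTR, start codon and 5' UTR peaks. Coding exon peaks are weaker than stop codon peaks at the outset, and how much of the gap goes with strength within genes was not tested.

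**Figure D4:**
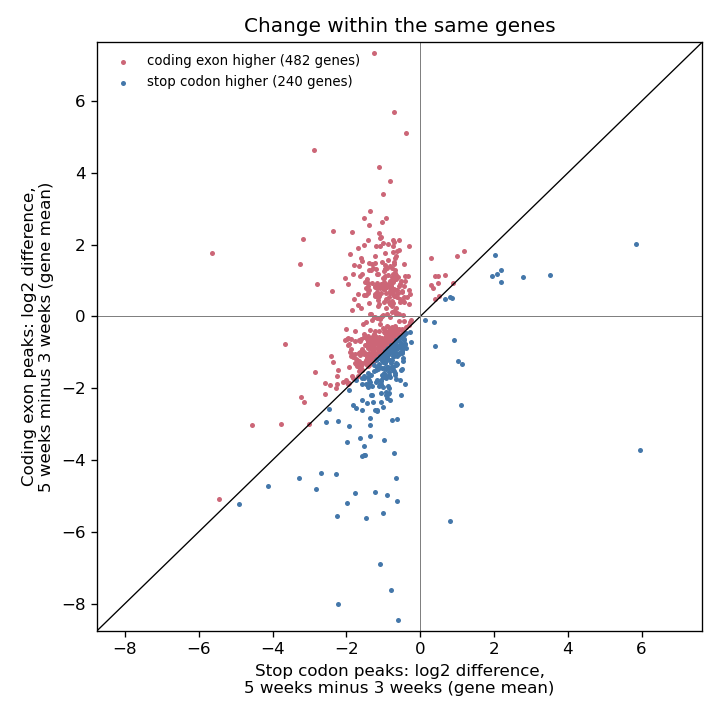
Difference in log2 enrichment, 5 weeks minus 3 weeks, at stop codon peaks (horizontal) and coding exon peaks (vertical) of the same gene, as means over the gene's peaks in the comparison table; each point is 1 of 722 genes and the diagonal marks equal change. Red points are the 482 genes with the higher coding exon difference and blue points the other 240.

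In 62 of 249 genes with both kinds of peak past 2-fold as listed, they went in opposite directions. The coding exon peak was stronger and the stop codon peak weaker in 58, and the reverse was seen in 4, counts that also depend on the scale. The widest gap was one of the 4: in Frem3, an extracellular matrix gene, the coding exon peak went from 8.71 to 3.58 and the stop codon peak from 2.98 to 8.95. Arid5a, which encodes an RNA-binding protein, went from 0.47 to 7.80 in the coding exon and from 4.63 to 3.37 at the stop codon. Arhgap27 went from 2.66 to 7.29 and from 3.58 to 0.72. In Nckap5 the values were 4.02 and 5.80 in the coding exon against 9.01 and 3.37 at the stop codon. Lama2, a laminin chain of basement membranes, went from 0.84 to 2.98 in the coding exon and from 5.65 to 2.47 at the stop codon. Nab2, a repressor of the immediate early factors EGR, went from 0.98 to 3.31 and from 6.22 to 3.64, but its other coding exon row had a difference of -6.05. Gria2, the AMPA receptor subunit that sets calcium permeability, went from 1.16 to 2.62 and from 3.39 to 0.14. Pitpnm2, Ighmbp2 and the coactivator gene Ncoa3 completed the 10 widest gaps, all 3 with the coding exon peak stronger.

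Peaks of the same gene also parted within the coding exons. Of 446 genes with 2 or more coding exon rows, 246 had all differences below 0, 73 had all above 0 and 127 had both signs, and in 32 genes peaks passed 2-fold both ways. Fat1 had 7 rows from -1.03 to 1.49, and Adgrv1 had 6 from -2.98 to 2.33. Ryr2, the calcium release channel of the endoplasmic reticulum, had 3 from -1.81 to 3.33. In Dcc, the netrin receptor of growing axons, one peak went from 0.08 to 2.61 and the other from 3.67 to 1.25.

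The largest single changes, among peaks with a log2 enrichment of at least 1 at both ages (2944 peaks, 1080 weaker and 429 stronger), were between a very high value at one age and a modest one at the other. Tiam2, an activator of the GTPase Rac, fell from 8.71 to 1.16 over chr1:44015061-44015386. The neuronal transcription factor gene Neurod4 fell from 8.82 to 1.76, and the adaptor gene Bcar3 from 8.20 to 1.29. The other falls among the 10 largest were in LOC497940, Ttc30a1, Tmem267, Garin3, Tex52 and 2 unnamed genes, with log2 differences between -7.35 and -6.75. In the opposite direction Bahcc1, a chromatin protein gene, went from 1.52 to 8.49, and Dnmbp, an activator of CDC42, from 2.34 to 9.03. Steap3, an iron reductase gene, went from 1.04 to 7.66, and Naa40, an acetyltransferase gene for histone tails, from 1.84 to 8.28. The other rises were in 4930455H04Rik, Crnkl1-ps1, Ankra2, Cep76, RGD1310852 and Ccdc142. Where a listed peak shared at least 50% of both spans with one of these 20, its p was between 7.04e-37 and 0.0019, and for 9 of the 20 no listed peak at either age did so.

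Well-supported peaks had a smaller share past 2-fold than all coding exon pairs, and a median slightly further from 0. Among 2484 pairs with a caller's p under 1e-20 at both ages, a group chosen after the data were seen, the median difference was -0.22, with 202 (8.13%) weaker and 34 (1.37%) stronger, against -0.17, 12.4% and 5.63% over all 5062 pairs. Irx5, a homeobox gene, went from 7.99 to 4.91 over nearly the same bases. Map1b and Scaf4, a transcript termination factor gene, led the list, from 6.56 to 2.08 and from 6.34 to 2.58, but in both the 5-week peak covered only part of the 3-week peak. For Map1b the comparison table gives 6.55 and 5.53 for a stretch, almost all of it inside the 3-week peak, that the 5-week partner did not cover. On the other side Etl4 went from 2.35 to 4.03, with a wider peak at 5 weeks, Synrg, a clathrin adaptor partner, from 2.59 to 4.17, and the histone deacetylase gene Hdac5 from 2.13 to 3.61.

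Gene lists gave coding exon peaks of unlike size and direction. For linkers of the spectrin, ankyrin and plakin families 75.7% of all peaks at 3 weeks were coding exon peaks, against 27.8% over all genes, and of their 62 rows in the comparison, 5 were stronger and 4 weaker, with a median of -0.27. Centred on the median of the table, the list had 29 stronger and 1 weaker. In Dmd (dystrophin) one peak went from 1.41 to 2.91, and in Dst one went from 4.50 to 3.20. Regulators of chromatin had 48.6% coding exon peaks at 3 weeks and 5 stronger and 13 weaker of 70 rows (median -0.63), such as the histone methyltransferase family gene Kmt2e, from 6.49 to 4.77, and the 5-methylcytosine oxidase gene Tet1, from 5.03 to 3.41. Centred, the chromatin list had 18 stronger and 1 weaker, so its direction turned. Over all coding exon peaks 36.8% were 2-fold weaker and 17.1% stronger as listed, and 1002 were stronger and 428 weaker when centred.

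Clustered protocadherins, cell-surface proteins that give neurons their identity, lost more, with 13 of 16 rows weaker, 1 stronger and a median of -1.81. Pcdhb5 went from 5.71 to 3.55 and Pcdhga5 from 5.28 to 1.63, whereas one peak of Pcdha5 went from 3.41 to 6.73. Their exons are similar in sequence and some models overlap, so reads could be shared between them. Zinc finger protein genes had 32 of 63 rows weaker and 7 stronger (median -1.04), and voltage-gated channels 13 of 25 weaker and 1 stronger (median -1.04), including the inward rectifier gene Kcnj4, from 8.56 to 4.28, and Cacna1a, the P/Q-type calcium channel, from 2.23 to -0.25. Centred, protocadherins had 5 weaker and 1 stronger, channels 3 and 1, and zinc finger genes 7 and 9, where the direction turned. In the paired lists protocadherins had a median of -0.59, zinc finger genes -0.31 and channels -0.22, beside -0.17 over all coding exon pairs.

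Synaptic and microtubule genes had more weaker than stronger peaks as listed, as had all coding exon peaks with 36.8% and 17.1%. Scaffolds of the postsynaptic density had 6 weaker and 2 stronger of 22 rows, with Dlgap3 at 5.01 and 3.65 and Shank3 at 1.81 and 3.38. The presynaptic active zone had 4 and 2 of 18, with Bsn (bassoon) at 4.70 and 3.49 in its most changed peak and the vesicle priming gene Unc13a at 0.95 and 3.06. By the same rule the Bsn and Unc13a rows each matched a listed peak at 5 weeks alone. Glutamate and GABA receptor subunits had 6 weaker and 1 stronger of 15, led by Gabre at 7.16 and 3.45. Microtubule-associated proteins had 7 weaker and none stronger of 15, with Map1a at 5.74 and 4.64 and Map7d2 at 7.70 and 6.09. Centred, the postsynaptic list had 5 stronger and 0 weaker, the presynaptic list 6 and 2, the receptor subunits 2 and 2 and the microtubule list 1 and 0, so none of the 4 had more weaker than stronger peaks on that scale.

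Axon guidance genes were the largest list with a median above 0. Of their 23 rows 8 were stronger and 9 weaker, with a median of 0.50, and in the paired lists 1 was stronger and 3 weaker of 32, with a median of 0.03. Plxnd1, a semaphorin receptor gene, went from -0.57 to 4.35, and Sema4b, a semaphorin gene, from 0.97 to 3.41, while Sema3g fell from 3.82 to 2.02. Splicing and RNA-binding proteins had 5 of 30 in each direction, among them Rbm38 from 1.69 to 4.64 and Rbm12b from 5.22 to 3.31. Cytosolic ribosomal proteins had 2 stronger and 1 weaker of 7, with Rps3a at 1.09 and 2.49. Beside these lists, 17.1% of all coding exon peaks were stronger and 36.8% weaker. The stronger share of the splicing list and the weaker share of the axon guidance list were near those values. Centred, axon guidance genes had 12 stronger and 1 weaker, where the direction turned, splicing and RNA-binding proteins 14 and 0, and ribosomal proteins 5 and 1.

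Genes tied to puberty and the control of gonadotropin-releasing hormone had 9 of 10 rows weaker and none stronger, with a median of -1.99, and centred 5 were weaker and none stronger. Over all 3128 coding exon peaks 36.8% were weaker and 17.1% stronger, with a median of -0.75, and centred 428 were weaker and 1002 stronger. Mkrn3, an imprinted ubiquitin ligase gene that restrains puberty, fell from 7.70 to 1.51 at chr1:115928725-115929000. Nrg1, a ligand of ErbB receptors, fell from 6.74 to 0.73, and Mc4r, the melanocortin receptor of energy balance, from 9.07 to 3.60. Neither the Mkrn3 nor the Nrg1 row matched a listed peak at either age by 50% of both spans, and the Mc4r row matched one at 3 weeks alone, with p of 5.34e-06. Irf2bpl, a transcriptional regulator of puberty, accounted for 4 of the 10 rows, 3 of them past 2-fold. In the separate lists, by contrast, the 9 paired peaks of these genes had a median of -0.02, with 1 stronger and 1 weaker, beside -0.17 over all coding exon pairs. Mkrn3 had a coding exon peak listed at 5 weeks alone, at 5.12, in another stretch than the row that fell, and the main Irf2bpl peak had 4.68 and 4.66.

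**Figure D5:**
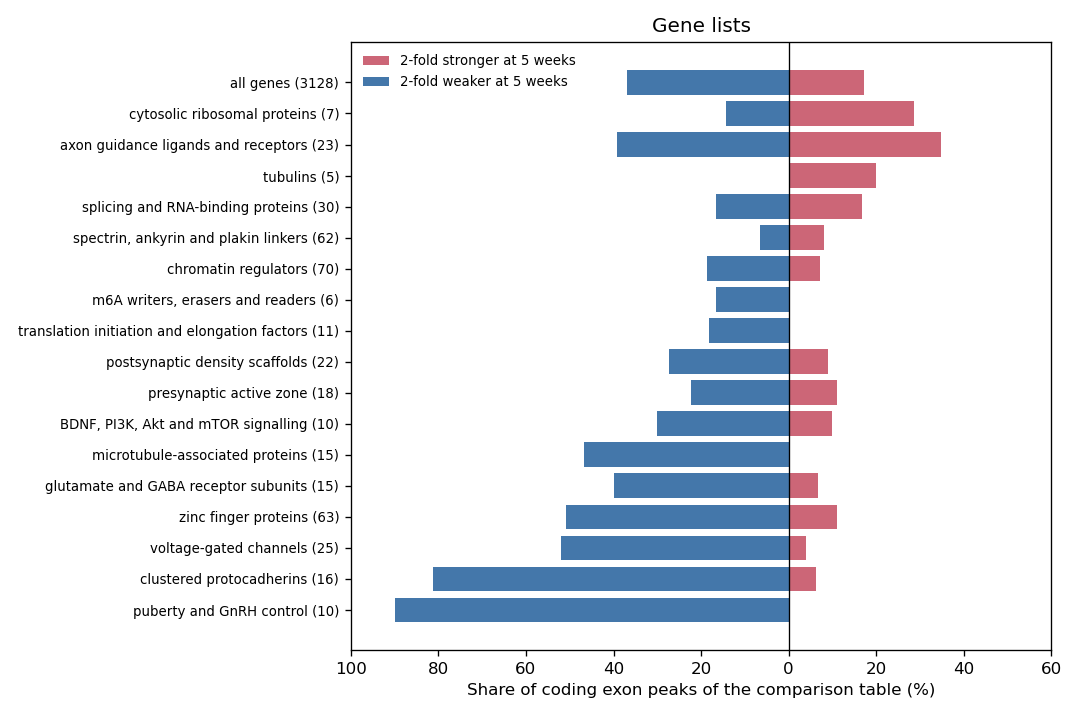
Share of the coding exon peaks of each gene list in the comparison table (%) that were at least 2-fold weaker (blue, to the left) or stronger (red, to the right) at 5 weeks, for lists with 5 or more peaks; the number of peaks stands in brackets. All coding exon peaks are at the top, with 36.8% weaker and 17.1% stronger, and the puberty list is at the bottom with 9 of 10 weaker. Values are as listed, and centring on the table's median turns the direction of all coding exon peaks together.

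The mRNAs of the m6A machinery carried coding exon peaks themselves, 11 at 3 weeks and 14 at 5 weeks. Beside Ythdc1 and Zc3h13, the cytoplasmic reader Ythdf2 had 5.36 and 4.22. Its row in the comparison table, 5.42 and 4.05, was the one 2-fold change among the 6 rows of the list as listed, with none when centred. Over all coding exon peaks 36.8% were weaker and 17.1% stronger as listed. Virma, a writer subunit, had 4.59 and 4.34 in its main peak, and the writer subunit Mettl14 had 3.71 and 4.28. The eraser Fto had a peak of 2.67 at 3 weeks and 2 peaks of 1.96 and 2.32 at 5 weeks, and Alkbh5 had a main peak of 2.72 and 3.07. The catalytic subunit gene Mettl3 had one listed at 5 weeks alone, at 2.84.

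In the BDNF, PI3K, Akt and mTOR list 3 of 10 rows were weaker and 1 stronger, with a median of -0.79, near the 36.8%, 17.1% and -0.75 of all coding exon peaks. Centred, 2 were stronger and 1 weaker, so the direction turned, and the 10 paired peaks had a median of -0.09. The neurotrophin receptor gene Ntrk3 went from 4.20 to 2.33, with listed p of 1.28e-71 and 1.47e-50. Pik3cd, a catalytic subunit of PI3K, went from 3.85 to 1.04, and Rps6kb1, which encodes p70S6K, from 3.58 to 1.91. The adaptor gene Shc1 went the other way, from -0.39 to 4.18. The rows of Pik3cd, Rps6kb1 and Shc1 matched no listed peak at either age by 50% of both spans. That of Pik3cd lay inside a wider 3-week peak of 2.52 and that of Shc1 inside a wider 5-week peak of 3.03.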

How the data were processed

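The deposited tables come from 4 MeRIP-seq libraries, grouped by age. The submitters' notes name fastp 0.19.4, HISAT2 2.0.4 and the human build GRCh38, although the gene IDs are of rat. The caller, its scaling and the rat build were not given in the sources used here. As log2, the authors deposited the enrichment of IP over input for each peak, and a comparison table with the log2 enrichment at both ages. Each p-value and adjusted p-value of a peak is that of the authors' caller, and the largest p was 0.0497, 0.0496 and 0.0499 in the 3 tables. The table's own fold changes, p-values and calls compare the ages and were not used, except to check that largest p. Without read counts the depth and the precision it gives are unknown.

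Differences were computed as 5 weeks minus 3 weeks and called at 2-fold. Overlaps and pairs needed 1 base in common on the same strand, and each peak entered 1 pair, the one with the largest overlap. Shares have 95% Wilson intervals over peaks. No test was run, and the overlap code was tested on simulated data. Named genes are the 10 with the most coding exon peaks, the 10 strongest pairs, the 10 largest falls and rises, up to 4 past 2-fold per list and the 10 widest gaps to the stop codon. Others were chosen after their values were seen. The members and the 27 gene lists were chosen with earlier results of these data known. Alternatives covered the p, strength, span, overlap, fold, centring and value per gene. Neuron, oligodendrocyte, astrocyte and microglia markers had peaks for all 4 genes each at both ages and pituitary hormone genes for 0 of 3. Of 5 arcuate markers 3 and 4 had peaks, Agrp at neither age. At both ages endothelial markers had peaks for 2 of 3 genes (not Cldn5). Tanycyte and ependymal markers had them for 1 of 3 (not Rax or Foxj1) and choroid plexus markers for 1 of 3 (not Ttr or Folr1). Versions were Python 3.11.15 with pandas 2.3.3, numpy 2.4.6, scipy 1.17.1 and matplotlib 3.10.9.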

Additional observations from a re-analysis of the deposited data

How the results depend on the processing

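No paired analysis was possible because each age has 1 pool. Of 40 alternatives to 14 results, 18 left the value within its interval or 1.5 times its count, and 1 turned a sign. The share of coding exon peaks was 18.8% and 18.1% among spans up to 500 bases, an alternative chosen after seeing the data. The median enrichment was 3.14 and 3.01 over paired peaks and 3.20 and 2.89 over each gene's strongest peak. With 50% of both peaks in common 43.9% and 36.9% had a partner, and with a partner of any region 81.3% and 66.4%. At 1.5-fold 847 peaks were stronger and 1841 weaker, and at 3-fold 299 and 606. Centring on the median of the comparison table gave 1002 stronger and 428 weaker peaks and a median difference of 0.21, and lists with more weaker than stronger peaks went from 13 to 3. Centred on the paired lists the median was -0.44, with 759 peaks stronger and 799 weaker, so the direction did not turn. Pairs with p under 1e-20 at both ages had -0.22. The gap within genes, added after seeing the data for paired lists, was 0.40 at stop codons and 0.13 at 3' UTRs there. The comparison's adjusted p, one of the authors' own comparison columns, and peaks of 1 exon block, for want of blocks, were not run. Unknown depth limits every value.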
